A study of Mus musculus with 12 samples.

Results

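The genes described here are 7 that mark or control microglial identity, Cx3cr1, Csf1r, Mef2c, Spi1, Runx1, P2ry12 and Gpr34. They were taken from the deposited count table by their exact gene name, and all 7 were found, each as 1 gene ID, among 55487 distinct IDs. The libraries came from BV2, an immortalised mouse microglial cell line. Cells were grown in normal glucose (NG) or high glucose medium (HG), each without or with CD200Fc at 50 ng/mL, and each of the 4 groups held 3 libraries. CD200Fc joins the extracellular part of CD200 to an antibody Fc region and is a ligand of CD200R1, an inhibitory receptor found on myeloid cells. The sources used here give neither the glucose concentrations nor the treatment times, and none of the groups is labelled as an Fc or osmotic control. BV2 is a transformed line kept without neurons or other glia. The labels name BV2 as source, but their treatment protocol describes retinas of perfused mice and sorted GFP-positive cells. The source label was followed.

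Microglia are the resident macrophages of the brain and retina. Their fate is set by transcription factors such as PU.1 (encoded by Spi1) and RUNX1 during development, and their survival depends on signalling through the CSF1 receptor. In the mature tissue they carry surface receptors such as the fractalkine receptor CX3CR1, the ADP receptor P2RY12 and the lysophosphatidylserine receptor GPR34. MEF2C is a transcription factor of the MADS family that is active in adult microglia. Much of this mature program depends on signals from the brain and is known to fade in culture.

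Total counts per library ran from 21454087 to 31905649. Levels are CPM, the usual scaling of counts to library size, on sizes adjusted by the trimmed mean of M-values (TMM). Genes were ranked against each other by CPM per kb of annotated exon. The limit of 1 CPM, and levels within or summed over a marker list, were not corrected for exon length. The labels do not say whether replicates are separate cultures, so the p-values rest on a spread between libraries that could be technical only. Ribosomal RNA genes took 1.49% of counts in HG replicate 2 and at most 0.119% in the other libraries. Markers of retinal neurons and photoreceptors were mostly low. Averaged over the 12 libraries, 13 of 15 retinal neuron markers and 10 of 12 photoreceptor markers were under 1 CPM. The exceptions among these were Pde6b, Sag, Slc6a9 and Rbpms, and the Muller glia marker Glul reached 166 CPM. Crx and Grm6 were at 0 in all libraries. Under 1 CPM were also 3 of 7 Muller glia and astrocyte markers and 3 of 5 retinal pigment epithelium markers. Of 10 endothelial and mural markers 5 were under 1 CPM, and the list summed to 379 to 507 CPM. Macrophage markers were abundant, with all 12 detected and a summed level of 7390 to 10507 CPM.

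Upstream sequences are shown for Cx3cr1 and Runx1, the 2 members that passed the test in any comparison below. The stretches come from the RefSeq promoter table (GRCm38.p6), read 5′ to 3′ on the strand of the gene, and only bases before the RefSeq start were searched. Motifs were searched on both strands: the ETS core GGAA, which PU.1 and its relatives bind, the longer PU.1-type form GAGGAA, the RUNX core TGTGGT, and the MEF2-type form, which is CTA and TAG with any 4 bases between them. All 250 bases before the Cx3cr1 start lie in an exon annotated for 1 other transcript of the gene, so 30 bases are shown, chr9:120068337-120068366 on the minus strand, which lie 70 to 41 bases before the start. The capitals mark, in order, a MEF2-type match, a RUNX core on the opposite strand and an ETS core.

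Cx3cr1: catCTAAAGATAGggtACCACAcaGGAAac

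In the whole window of 250 bases Cx3cr1 held 1 MEF2-type match, 1 RUNX core, 2 ETS cores and no GAGGAA. Among 32851 promoters of the same length, 3.20% held the MEF2-type form, 14% the RUNX core, 0.478% both of these, 23.3% GAGGAA and 93.4% the ETS core. A second MEF2 form has only A and T in the centre but is looser at its ends, with C or T first and A or G last. Of the promoters 2.92% held this second form. The Cx3cr1 match has G inside its centre and is not of it. Runx1 has a distal and a proximal start in the table, and capitals in the next stretches mark ETS cores on either strand. The distal stretch is chr16:92826150-92826324 on the minus strand, with 75 bases next to the start left out because they are annotated as exon. The proximal stretch is chr16:92697330-92697579 on the minus strand and overlaps no annotated exon.

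Runx1 distal: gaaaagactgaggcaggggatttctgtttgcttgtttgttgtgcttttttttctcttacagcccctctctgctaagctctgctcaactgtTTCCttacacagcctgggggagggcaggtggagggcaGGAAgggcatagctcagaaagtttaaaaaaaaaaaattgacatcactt

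Runx1 proximal: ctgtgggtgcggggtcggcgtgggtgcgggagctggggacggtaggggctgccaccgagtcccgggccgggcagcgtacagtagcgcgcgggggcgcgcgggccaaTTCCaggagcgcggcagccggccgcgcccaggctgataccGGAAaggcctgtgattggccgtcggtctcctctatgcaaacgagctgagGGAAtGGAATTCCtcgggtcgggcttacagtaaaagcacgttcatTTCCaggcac

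The full windows of 250 bases before the distal and the proximal Runx1 start held 4 and 6 ETS cores, and the proximal one also held 1 GAGGAA, which overlaps an ETS core. Neither held a RUNX core or a MEF2-type match. These matches are letters in a window and no measurement of binding.

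The 7 genes spanned more than 3 orders of magnitude in level. Per kb of exon and averaged over 12 libraries, Spi1 stood at 198 CPM per kb and Csf1r at 162 CPM per kb, above 99.1% and 98.8% of the tested genes. Runx1 had 7.42 CPM per kb and Mef2c 2.39 CPM per kb, above 66.5% and 45.3%. P2ry12 with 0.660 CPM per kb and Cx3cr1 with 0.595 CPM per kb lay above 23.1% and 21.3% of the tested genes. Gpr34 had 0.0652 CPM per kb and was the only member under 1 CPM in the mean of each of the 4 groups, the limit used here for barely expressed. It was also the only one removed by the filter on low counts, so 6 of 7 members were tested.

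**Figure D1:**
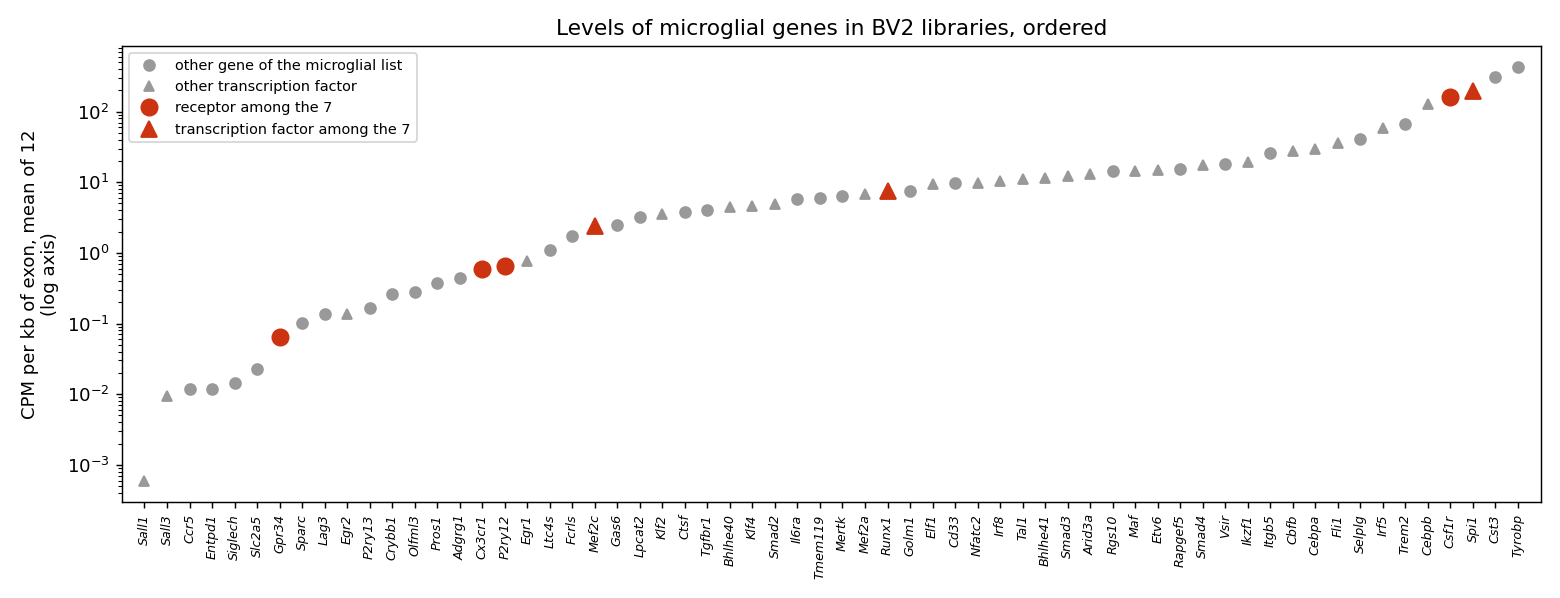
Level of 62 genes from the lists of microglial genes and microglial transcription factors (x axis, ordered) as mean CPM per kb of exon over 12 libraries (y axis, log scale); red marks are the 7 genes of this report, triangles are transcription factors. Spi1 (198) and Csf1r (162) sit near the top, Gpr34 (0.0652) near the bottom; Upk1b, at 0 in all libraries, cannot be shown on a log axis.

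Other genes of the microglial signature were as uneven. Of 38 listed genes found in the table, 12 had a mean under 1 CPM over the 12 libraries. Among the highest were Tyrobp, the adaptor of TREM2, with 432 CPM per kb, and Cst3 with 305 CPM per kb. Tmem119, a surface marker of microglia, had 5.94 CPM per kb, below that of Runx1. Sall1, a transcription factor of microglia in the brain, had 0.000592 CPM per kb, Siglech 0.0146 CPM per kb and Slc2a5 0.0227 CPM per kb, all lower than Gpr34. These genes were picked for their levels after the values were seen.

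Cx3cr1 (ENSMUSG00000052336) lies on chromosome 9, 119901616 to 120069879 on the minus strand of GRCm38. That span is stretched by transcripts with little support; the best supported one, Cx3cr1-201, runs from 120048683 to 120068296. The gene encodes the G-protein-coupled receptor of fractalkine. In NG its level was 3.86, 3.87 and 2.40 CPM, from 91, 99 and 59 counts. With CD200Fc in NG it was 2.06, 2.04 and 2.7 CPM, from 52, 52 and 87 counts. HG libraries had 1.44, 1.78 and 0.709 CPM, from 42, 47 and 18 counts. The HG libraries were the lowest of the 12, and none of them overlapped with any other group. With CD200Fc in HG the level was 3.29, 3.82 and 4.22 CPM, from 88, 79 and 92 counts. These values overlapped with NG and lay above every NG+CD200Fc and HG library. Counting error alone is wide at this depth: the exact 95% Poisson interval of HG replicate 3 ran from 0.420 to 1.12 CPM and that of NG replicate 3 from 1.82 to 3.09 CPM.

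**Figure D2:**
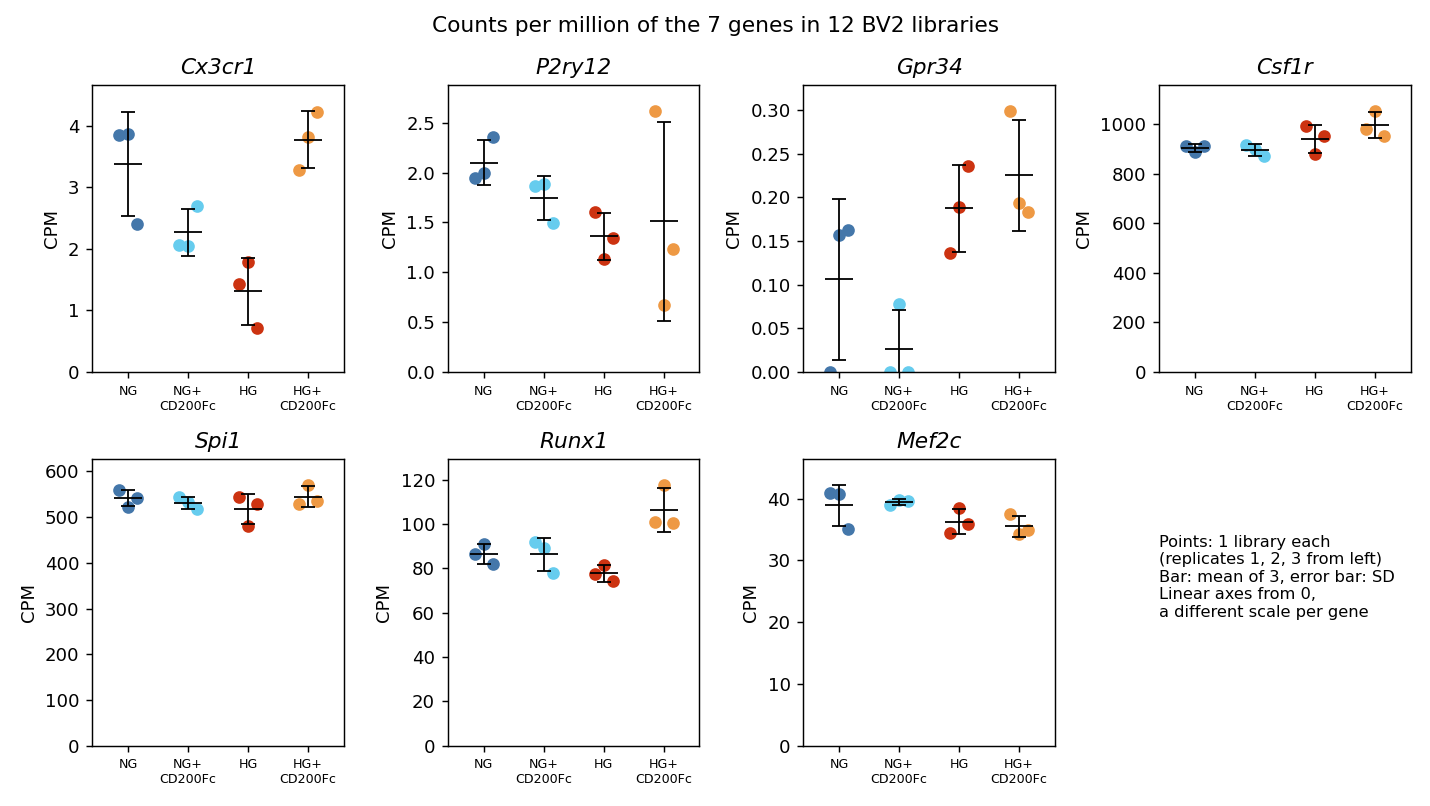
CPM (y axis, linear, from 0, a different scale for each gene) of the 7 genes in the 4 groups (x axis); points are libraries, bars are means of 3 and error bars are SD. Cx3cr1 is lowest in the 3 HG libraries (0.709 to 1.78 CPM) and Runx1 highest in the 3 HG+CD200Fc libraries (101 to 118 CPM), while Spi1 lies between 480.4 and 571 CPM in all 12.

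Group means of Cx3cr1 were 3.77 ± 0.465 CPM in HG+CD200Fc, 3.38 ± 0.848 CPM in NG, 2.27 ± 0.376 CPM in NG+CD200Fc and 1.31 ± 0.547 CPM in HG (SD, n = 3 each). Cx3cr1 fell in HG against NG, with a log2 fold change of -1.36 ± 0.28 (SE; edgeR quasi-likelihood test, Benjamini-Hochberg adjusted p = 0.00065), which is 0.390 times the NG level. It was the 1 member called in that comparison, in which 24.6% of all 19182 tested genes were called in either direction, 11.7% higher and 12.9% lower. It rose in HG+CD200Fc against HG by 1.51 ± 0.28 on the log2 scale, a fold of 2.86 (edgeR adjusted p = 2.30e-04). Both comparisons use the same 3 HG libraries, so they are not independent of each other. Without HG replicate 3, the lowest library, the log2 fold changes were -1.09 against NG and 1.23 for HG+CD200Fc against HG (edgeR adjusted p = 0.00667 and 0.00278). Without HG replicate 2, the library with more ribosomal RNA, they were -1.63 and 1.79 (edgeR adjusted p = 4.61e-04 and 1.75e-04).

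In NG the change with CD200Fc pointed the other way and was not called: -0.57 ± 0.26 on the log2 scale, with a 95% interval from -1.11 to -0.02 (edgeR adjusted p = 0.816). The difference between the changes with CD200Fc in HG and in NG was 2.08 ± 0.38 on the log2 scale (edgeR interaction test, adjusted p = 7.74e-04). Neighbours in the order of group means could not be told apart by the test: HG+CD200Fc against NG gave 0.16 ± 0.26 with a 95% interval from -0.37 to 0.69 (edgeR adjusted p = 0.725). HG against NG+CD200Fc gave -0.79 ± 0.28 (edgeR adjusted p = 0.0525), although their libraries did not overlap, and was called in 8 of 20 alternative analyses. HG+CD200Fc against NG+CD200Fc gave 0.72 ± 0.26 (edgeR adjusted p = 0.0871) and was called in 2 of 20. In the authors' deposited table the log2 fold changes of Cx3cr1 were -1.35 for HG against NG (FDR 3.42e-05) and 1.52 for HG with CD200 against HG (FDR 3.02e-06).

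The ligand of this receptor, the membrane-bound chemokine fractalkine (Cx3cl1), was measured at 10.5 to 18.9 CPM. It fell in HG against NG by 0.44 ± 0.12 on the log2 scale and rose in HG+CD200Fc against HG by 0.52 ± 0.12 (edgeR adjusted p = 0.0082 and 0.00289). Its own difference between the changes with CD200Fc, 0.44 ± 0.17, was not called (edgeR adjusted p = 0.136). Of 11 genes of the fractalkine axis, Cx3cr1 and Cx3cl1 were the 2 that fell in HG against NG, where 12.9% of all tested genes fell, and none rose. In HG+CD200Fc against HG 3 rose and 3 fell, beside 9.46% and 8.30% of all tested genes; with the DESeq2 size factors or upper quartile scaling 2 fell. Grk2, a receptor kinase, rose by 0.24 ± 0.055, and Ctss, a protease that sheds fractalkine, changed by -0.37 ± 0.061 (edgeR adjusted p = 0.00251 and 7.01e-05). The median log2 fold change of the 11 genes was -0.04 in HG against NG and -0.01 in HG+CD200Fc against HG, beside 0.02 and -0.02 over all tested genes. Adam10 and Adam17, which also cleave fractalkine, were not called in either.

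Cx3cr1 was the only gene called in HG+CD200Fc against HG with a higher level among 8 tested of 14 chemokine receptor genes; 1 was called lower, beside 9.46% higher and 8.30% lower over all tested genes. Ccrl2, an atypical receptor, had the opposite pattern, 0.87 ± 0.12 in HG against NG and -1.02 ± 0.12 in HG+CD200Fc against HG (edgeR adjusted p = 1.20e-05 and 2.02e-06). In HG against NG 1 of the 8 rose and 3 fell, beside 11.7% and 12.9% of all tested genes. Cxcr3 and Cxcr4 changed by -0.41 ± 0.097 and -0.41 ± 0.088 in HG against NG (edgeR adjusted p = 0.00246 and 0.00105). Ccr2 of inflammatory monocytes did not exceed 0.137 CPM in any library.

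By Pearson correlation of log2 CPM over the 12 libraries, among 11222 genes with a mean of at least 1 CPM, the genes most like Cx3cr1 were Angptl4 (0.900), D5Ertd579e (0.893), Ncs1 (0.893), Naa15 (0.882) and Golm1 (0.880). These are descriptions over 12 points that share 4 groups, and the 5 were the highest of many. Golm1, a Golgi membrane protein gene that is itself in the microglial list, had means of 35.0 CPM in NG, 33.4 CPM in NG+CD200Fc, 28.9 CPM in HG and 34.7 CPM in HG+CD200Fc. Ncs1, a neuronal calcium sensor, moved most among the 5, from 10.3 CPM in NG to 6.47 CPM in HG and 11.7 CPM in HG+CD200Fc. All 5 had smaller fold changes than Cx3cr1 in HG against NG, between -0.67 and -0.20 on the log2 scale, against -1.36. With Spearman's correlation 3 of these 5 genes were again among the 5 most alike.

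**Figure D3:**
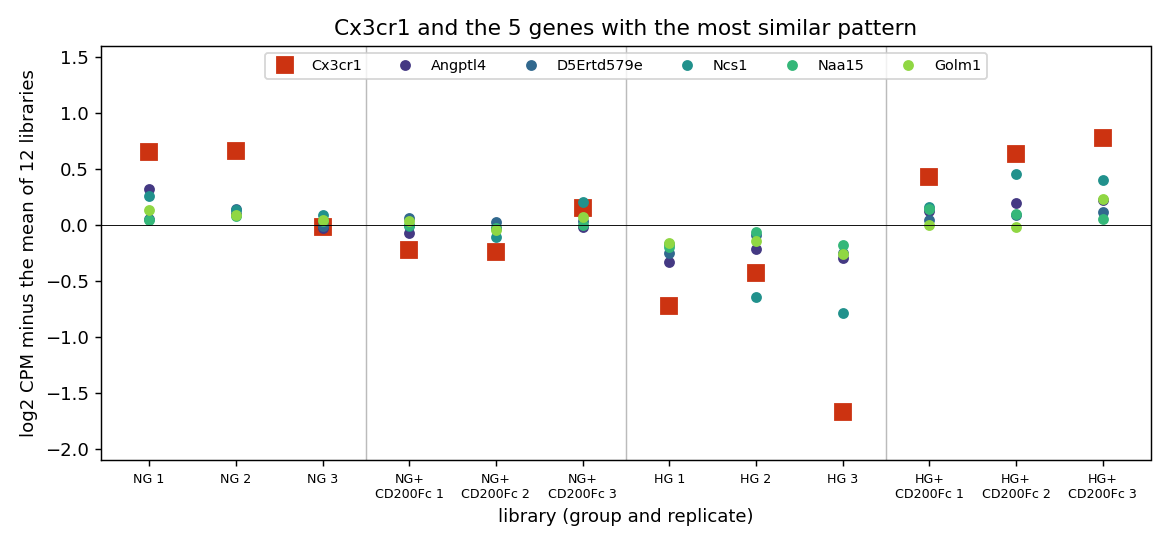
Log2 CPM minus the mean of 12 libraries (y axis) of Cx3cr1 (red squares) and the 5 genes whose pattern is most like it (circles) in each library (x axis). Points are below 0 in the 3 HG libraries for all 6 genes, and Cx3cr1 has the widest range.

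P2ry12 (ENSMUSG00000036353; chromosome 3, 59216272 to 59262871, minus strand) encodes the ADP receptor that guides microglial processes. Its gene lies inside Med12l on the opposite strand and shares 9 bp of exon with it. It had 1.95, 1.99 and 2.36 CPM in NG, and 1.86, 1.88 and 1.49 CPM in NG+CD200Fc. In HG it had 1.61, 1.14 and 1.34 CPM, below all NG libraries. HG+CD200Fc libraries had 2.62, 0.676 and 1.24 CPM, from 70, 14 and 27 counts, and so held both the highest and the lowest value of the 12. The log2 fold change in HG against NG was -0.62 ± 0.34, with a 95% interval from -1.31 to 0.07 (edgeR adjusted p = 0.189). HG+CD200Fc against HG gave 0.18 ± 0.34, with an interval from -0.53 to 0.88 (edgeR adjusted p = 0.80). Its direction rested on single libraries: it was -0.50 without HG+CD200Fc replicate 1 and 0.51 without HG+CD200Fc replicate 2 (edgeR adjusted p = 0.407 and 0.367). P2ry12 was called in none of the 7 comparisons, but HG+CD200Fc against NG, -0.44 ± 0.34, became -1.13 (edgeR adjusted p = 0.0243) without HG+CD200Fc replicate 1.

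Gpr34 (ENSMUSG00000040229; chromosome X, 13632089 to 13640858, plus strand) lies inside Cask on the opposite strand and shares no exon with it. It had 41 counts in all 12 libraries together: 0, 4 and 4 in NG, 0, 2 and 0 in NG+CD200Fc, 4, 5 and 6 in HG, and 8, 4 and 4 in HG+CD200Fc. The highest library reached 0.299 CPM, and the 3 libraries at 0 allow up to 0.127, 0.119 and 0.0931 CPM, taking 3 counts as the limit. No fold change is given at this level. In the list of 14 genes of P2Y receptors and their neighbours 10 were tested. P2ry6, the UDP receptor of phagocytosis, was the 1 gene called in HG against NG, -0.65 ± 0.068, and in HG+CD200Fc against HG, 0.50 ± 0.068 (edgeR adjusted p = 1.99e-07 and 8.01e-06), where 24.6% and 17.8% of all tested genes were called. At 139 CPM per kb it was far above P2ry12, P2ry13 (0.165 CPM per kb) and P2ry14 (0.0376 CPM per kb).

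Csf1r (ENSMUSG00000024621; chromosome 18, 61100598 to 61132149, plus strand) encodes the receptor tyrosine kinase for CSF1 and IL-34. Its levels were 913, 886 and 912 CPM in NG and 915, 902 and 870 CPM in NG+CD200Fc. In HG they were 991, 878 and 951 CPM, and in HG+CD200Fc 981, 1053 and 953 CPM. HG+CD200Fc libraries lay above all NG and NG+CD200Fc libraries and overlapped with HG. The largest differences were 0.15 ± 0.052 for HG+CD200Fc against NG+CD200Fc and 0.14 ± 0.052 against NG (edgeR adjusted p = 0.0689 and 0.0583). Neither was called, and they passed in 6 and 7 of 20 alternative analyses. HG against NG gave 0.06 with a 95% interval from -0.05 to 0.16 (edgeR adjusted p = 0.470). Of its exon length, 15.1% overlaps with Hmgxb3 on the other strand, which had 67.4 to 88.3 CPM and rose in HG+CD200Fc against NG by 0.30 (edgeR adjusted p = 0.0015); how far its reads enter the Csf1r counts was not tested, since no source used here gives the strand setting of the counting.

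Several genes around this receptor passed the test. Of 23 tested genes listed under the CSF1 receptor axis, 9 rose and 1 fell in HG against NG, beside 11.7% and 12.9% of all tested genes. The list also holds receptor genes of other cytokines, and Csf2ra, Csf2rb, Csf2rb2 and Csf3r were among the 9. The median log2 fold change of the list was 0.11, beside 0.02 over all tested genes. With DESeq2 size factors 8 of the list rose and 2 fell, and with upper quartile scaling 11 rose and 2 fell. Over all 19182 genes the calls were 2144 higher and 2621 lower, then 2490 higher and 2126 lower, in that order. Csf1, the ligand, rose by 0.41 ± 0.086 in HG against NG (edgeR adjusted p = 7.30e-04). Its value in HG+CD200Fc against HG was -0.25 ± 0.086 (edgeR adjusted p = 0.0388) and passed in 10 of 20 alternative analyses. That call was lost with DESeq2 size factors, with upper quartile scaling, and on leaving out any 1 HG library, either of NG replicates 1 and 3, replicate 1 of NG+CD200Fc, or either of HG+CD200Fc replicates 1 and 3. Il34, the second ligand, had 0.153 CPM per kb. Csf2rb encodes the beta chain shared by the GM-CSF, IL-3 and IL-5 receptors, and Csf2rb2 the mouse beta chain of the IL-3 receptor alone. The 2 genes are close copies, so how their reads were divided is uncertain. Csf2rb2 changed by 0.70 ± 0.059 and -0.37 ± 0.058, and Csf2rb by 0.57 ± 0.055 and -0.36 ± 0.055, in the same order of comparisons (edgeR adjusted p at most 3.01e-05). The kinase gene Akt1 went the other way, -0.26 ± 0.055 and 0.36 ± 0.055 (edgeR adjusted p = 0.00107 and 2.85e-05).

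Spi1 (ENSMUSG00000002111; chromosome 2, 91082390 to 91115756, plus strand) encodes PU.1, the ETS factor on which macrophage identity depends. It had 560, 523 and 542 CPM in NG, 545, 532 and 517 CPM in NG+CD200Fc, 545, 480.4 and 528 CPM in HG, and 529, 571 and 535 CPM in HG+CD200Fc. All groups overlapped with each other. Its log2 fold changes in the 6 pairwise comparisons lay between -0.07 and 0.07, and the 95% interval for HG against NG ran from -0.18 to 0.04 (edgeR adjusted p = 0.412).

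While Spi1 was not called, part of the listed PU.1 target genes were. Of 34 tested, 13 rose and 1 fell in HG against NG, where 11.7% of all tested genes rose and 12.9% fell. In HG+CD200Fc against HG, 3 of the 34 rose and 21 fell, where 9.46% of all tested genes rose and 8.30% fell. Their median log2 fold changes were 0.07 and -0.23, beside 0.02 and -0.02 over all tested genes. Mpeg1, a pore-forming protein of macrophages, changed by 1.45 ± 0.074 in HG against NG and by -1.42 ± 0.074 in HG+CD200Fc against HG (edgeR adjusted p = 1.24e-13 and 6.70e-13). Adgre1, which encodes F4/80, changed by 0.80 ± 0.060 and -0.88 ± 0.060 (edgeR adjusted p = 1.49e-10 and 5.76e-11). Aif1, which encodes IBA1, changed by 0.44 ± 0.069 and -0.70 ± 0.070 (edgeR adjusted p = 2.96e-05 and 3.92e-08). The direction of these 3 genes was opposite to that of Cx3cr1 in both comparisons, which share the HG libraries.

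The list of 12 macrophage markers, all also among the PU.1 targets, was divided. In HG against NG 5 rose, 1 fell and 6 were not called, where 11.7% of all tested genes rose and 12.9% fell. The median log2 fold change of the markers was 0.07 beside 0.02 over all tested genes. With CD200Fc in HG 1 marker rose and 8 fell against HG, where 9.46% of all tested genes rose and 8.30% fell. The median there was -0.34 beside -0.02. Their summed level was 7990 to 8369 CPM in NG and 7390 to 7888 CPM in NG+CD200Fc. It was 8876 to 10507 CPM in HG and 7442 to 7753 CPM in HG+CD200Fc. Lyz2, the lysozyme gene of macrophages, had the highest level in that sum in HG, with means of 2152 CPM in NG, 3322 CPM in HG and 1827 CPM in HG+CD200Fc. Cd68, a lysosomal membrane protein gene, was the marker that fell in HG against NG, by 0.19 ± 0.054 (edgeR adjusted p = 0.00986, and 0.0627 without HG replicate 2). The part of these genes in the Cx3cr1 result was not tested.

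Runx1 (ENSMUSG00000022952; chromosome 16, 92601466 to 92826149, minus strand) encodes a runt-domain factor that is needed for blood and microglial progenitors. It had 86.5, 90.9 and 82.1 CPM in NG and 92.1, 89.2 and 78.0 CPM in NG+CD200Fc. In HG it had 77.4, 81.7 and 74.3 CPM, and in HG+CD200Fc 100.8, 118 and 101 CPM. Every HG+CD200Fc library lay above all 9 others, and HG lay just below NG. Runx1 rose in HG+CD200Fc against HG by 0.45 ± 0.070 on the log2 scale, a fold of 1.37 (edgeR adjusted p = 2.96e-05). With Cx3cr1 it made 2 members called there, both higher, where 17.8% of all tested genes were called in either direction and 9.46% higher. It rose against NG too, by 0.30 ± 0.070 (edgeR adjusted p = 0.00336), as the 1 member called, where 20.3% of all tested genes were called and 9.56% higher.

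Against NG+CD200Fc, Runx1 rose by 0.30 ± 0.070 (edgeR adjusted p = 0.00951) and was again the 1 member called. There 8.30% of all tested genes were called, 4.65% higher and 3.65% lower. These were 892 higher and 701 lower genes, or 1115 higher and 494 lower with upper quartile scaling. This call was lost without NG+CD200Fc replicate 3 (0.23, edgeR adjusted p = 0.0957) and without HG+CD200Fc replicate 2 (0.22, edgeR adjusted p = 0.108). The change in HG against NG was -0.15 ± 0.070 and was not called (edgeR adjusted p = 0.116). CD200Fc in NG gave 0.00 with a 95% interval from -0.15 to 0.14, and the changes with CD200Fc in HG and NG differed by 0.45 ± 0.099 (edgeR interaction test, adjusted p = 0.00414). Cx3cr1 and Runx1 were the 2 members called in that test, both positive, where 7.20% of all tested genes were called, 3.62% positive and 3.58% negative. In the authors' deposited table Runx1 had log2 fold changes of 0.45 for HG with CD200 against HG (FDR 1.09e-06) and 0.31 against NG (FDR 0.00171).

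**Figure D4:**
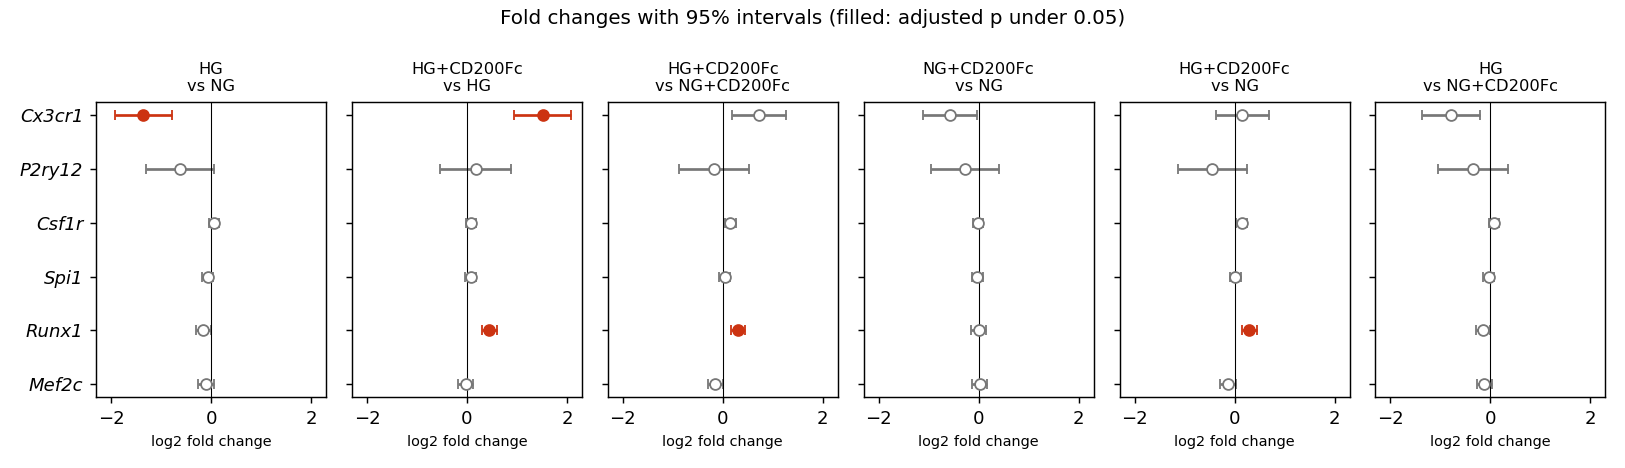
Log2 fold changes (x axis) with 95% intervals of the 6 tested genes (y axis) in the 6 pairwise comparisons, from the edgeR model of all 12 libraries; filled red points have an adjusted p under 0.05. Cx3cr1 passes in HG against NG (-1.36) and HG+CD200Fc against HG (1.51), Runx1 in the 3 comparisons of HG+CD200Fc with another group, and intervals are widest for the genes of low count, Cx3cr1 and P2ry12.

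Relatives and partners of Runx1 were measured beside it. Of 6 tested genes of the RUNX family list, 2 rose in HG+CD200Fc against HG, Runx1 and Runx3 (0.54 ± 0.13, edgeR adjusted p = 0.00573), and none fell; 3 rose with DESeq2 size factors or upper quartile scaling. Over all tested genes 9.46% rose. Cbfb, the shared partner subunit, fell in HG against NG by 0.26 ± 0.057 (edgeR adjusted p = 0.00124). The genes most like Runx1 over the 12 libraries were Chaf1a (Pearson's r = 0.955), Etv6 (0.952), Kdm2b (0.949), Tshz1 (0.943) and Ubqln4 (0.940). These genes were picked for following Runx1 over the same 12 libraries, so a fold change near that of Runx1 follows in part from the choice. Their p-values are no separate evidence of a shared change. Etv6, a repressor of the ETS family, rose in HG+CD200Fc against HG by 0.43 ± 0.065 (edgeR adjusted p = 1.81e-05), almost the value of Runx1. Among 27 tested microglial transcription factors 8 rose and 2 fell in that comparison, where 9.46% of all tested genes rose and 8.30% fell, with a median of 0.11 beside -0.02 over all tested genes. Cebpa, a partner of PU.1 in myeloid genes, rose by 0.54 ± 0.093 (edgeR adjusted p = 3.26e-04). In HG against NG 4 of the 27 rose and 3 fell, near the 11.7% and 12.9% of all tested genes. Maf rose by 0.39 ± 0.059 and Fli1 fell by 0.30 ± 0.057 (edgeR adjusted p = 1.61e-05 and 2.90e-04).

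Mef2c (ENSMUSG00000005583; chromosome 13, 83504034 to 83667080, plus strand) encodes a MADS-box factor that restrains microglial inflammatory responses. It had 41.0, 40.7 and 35.1 CPM in NG, 39.0, 39.8 and 39.6 CPM in NG+CD200Fc, 34.4, 38.5 and 35.9 CPM in HG, and 37.5, 34.2 and 34.9 CPM in HG+CD200Fc. Both HG groups lay below all 3 NG+CD200Fc libraries, while NG overlapped with each of them through its replicate 3. None of its 7 comparisons was called. The difference in HG against NG was -0.10 ± 0.076, with a 95% interval from -0.26 to 0.05 (edgeR adjusted p = 0.352), and in HG+CD200Fc against HG -0.03 ± 0.076, with an interval from -0.18 to 0.13 (edgeR adjusted p = 0.873). Of the 4 MEF2 genes Mef2d was the 1 called in any comparison, and it stood at 24.6 CPM per kb, above Mef2a (6.87) and Mef2c (2.39). It rose in HG+CD200Fc against NG by 0.46 ± 0.092 (edgeR adjusted p = 0.00202), a call kept in 20 of 20 alternative analyses. Against NG+CD200Fc it rose by 0.33 ± 0.091 (edgeR adjusted p = 0.0346), which passed in 14 of 20 and was lost with only the groups compared and on leaving out either of NG+CD200Fc replicates 1 and 3, HG replicate 2, or either of HG+CD200Fc replicates 2 and 3. Against HG the value was 0.27 ± 0.091 (edgeR adjusted p = 0.0484). That call passed in 13 of 20 and was lost under the stricter filter, under upper quartile scaling, and on leaving out any 1 HG library or either of HG+CD200Fc replicates 2 and 3.

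In NG+CD200Fc against NG no member was called by edgeR, and 1 had an unadjusted p under 0.05, Cx3cr1. Neither DESeq2 nor limma voom called a member there. Over all 19182 genes edgeR called 0 (0%), with 1147 at an unadjusted p under 0.05, DESeq2 called 0 and limma voom 1. In HG against NG+CD200Fc edgeR called no member, where 18.1% of all genes were called, 8.86% higher and 9.21% lower. There 2 members had an unadjusted p under 0.05, as did 5791 of all 19182 genes. DESeq2 called 1 member and limma voom 2, beside 3846 and 4657 of all 19182 genes.

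Of 29 tested genes of the wider microglial list, 5 rose and 6 fell in HG against NG, where 11.7% of all tested genes rose and 12.9% fell. For HG+CD200Fc against HG 4 rose and 5 fell, where 9.46% rose and 8.30% fell. Its median log2 fold changes were -0.05 and -0.07 beside 0.02 and -0.02 over all tested genes. Fcrls, a microglial Fc receptor-like gene with 2.29 to 7.97 CPM, moved against Cx3cr1: 1.36 ± 0.21 in HG against NG and -1.49 ± 0.21 in HG+CD200Fc against HG (edgeR adjusted p = 2.11e-05 and 8.31e-06). Vsir, which encodes the checkpoint receptor VISTA, changed by 0.53 ± 0.060 and -0.45 ± 0.060 (edgeR adjusted p = 2.60e-07 and 2.93e-06). Trem2, a lipid-sensing receptor gene of microglia, fell in HG against NG by 0.45 ± 0.064 (edgeR adjusted p = 6.60e-06). In HG+CD200Fc against HG it was not called, at 0.18 ± 0.064 (edgeR adjusted p = 0.0523).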

How the data were processed

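Per the labels' protocols, ribosomal RNA was removed enzymatically, cDNA was primed with random hexamers, and paired ends were read on a NovaSeq. The authors deposited raw counts per gene, without normalization. Tools listed in the submitters' processing notes are STAR, Salmon and featureCounts (Subread) after bcl2fastq, then limma and edgeR, with build GRCm38; no source used here gives the annotation release or strand setting. A second table deposited by the authors holds log2 fold changes, p-values and false discovery rates for 15372 genes, without Gpr34.

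Of 55774 lines, 287 exact repeats were dropped. Genes passing filterByExpr (19182) were scaled by TMM and fitted to 12 libraries with edgeR 4.0.16 (robust quasi-likelihood, R 4.3.3), with Benjamini-Hochberg adjustment within each of 7 contrasts and a threshold of 0.05. The fit was also run on simulated data, with fold changes added only to genes with a mean of at least 1 CPM. The outcome of that run is not reported here. Exon lengths and overlaps came from GENCODE M21. Correlations used log2 CPM with a prior count of 2. Reads carry no molecular identifiers, so Poisson intervals and limits from 3 counts cover counting error only.

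The members and the 20 gene lists (249 of 250 names matched) were chosen with earlier results of these data known. Genes named are the members, any gene of lists with up to 15 names, the 4 with the smallest p per contrast in longer lists, and the 5 most like each member; others are named for their level or role, after their values were seen. Some listed genes are not reported here by name, but stay in the counts. Alternatives were other scaling, filters and fits, DESeq2 1.42.0, limma 3.58.1 voom with quality weights, a replicate block, and each library left out.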

Additional observations from a re-analysis of the deposited data

Results flagged for a closer look

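For Cx3cr1 the change with CD200Fc differed between the glucose levels, by 2.08 on the log2 scale (edgeR interaction test, adjusted p = 7.74e-04): 1.51 in HG and -0.57 in NG. It kept its direction and passed in 19 of 19 alternatives, between 1.80 and 2.45.

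For Runx1 the same difference was 0.45 on the log2 scale (edgeR interaction test, adjusted p = 0.00414), with 0.45 in HG and 0.00 in NG. It passed in 19 of 19 alternatives, between 0.38 and 0.51.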

How the results depend on the processing

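Of 834 recomputed fold changes of members none reversed a call, 2 lost it, both Runx1 in HG+CD200Fc against NG+CD200Fc, and 28 gained one. Cx3cr1 in HG against NG passed in 20 of 20 alternatives, between -1.64 and -1.09, and in HG+CD200Fc against HG in 20 of 20, between 1.23 and 1.93. Runx1 in HG+CD200Fc against HG passed in 20 of 20, between 0.37 and 0.49.

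Counts of members called moved in 4 comparisons, and the cause was not tested. In HG+CD200Fc against NG+CD200Fc (1 called) it was 2 under upper quartile scaling, 2 for the stricter filter, 3 with DESeq2, 3 with limma voom, and 0 to 2 with 1 library left out. Calls over all tested genes, 1593 in the main fit, were 1609, 1742 of 15361, 2134, 2597 and 277 to 2288 in the same order. In HG+CD200Fc against NG (1 called) it was 2 with upper quartile scaling, the stricter filter, DESeq2, limma voom or only the groups compared, and 1 to 2 with 1 library left out. Over all tested genes 3903 calls became 3866, 4096 of 15361, 4216, 4894, 4550 of 17623 and 2217 to 4217, in the same order. In HG against NG+CD200Fc (0 called) it was 1 with DESeq2 size factors, without a filter and with DESeq2, 2 with limma voom, and 0 to 1 with 1 library left out. All tested genes gave 3466 calls in the main fit, then 3546, 3441 of 36322, 3846, 4657 and 2669 to 3679 in that order. In HG against NG (1 called) it was 1 to 2 with 1 library left out, beside 3326 to 5045 calls over all tested genes and 4720 in the main fit. Csf1r, Cx3cr1, Runx1 and P2ry12 gave all gained calls.

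With the replicate number as a block the counts were 2 in HG against NG, 2 in HG+CD200Fc against NG+CD200Fc, 2 in HG+CD200Fc against NG and 1 in HG against NG+CD200Fc. Over all 19182 genes the block gave 5258, 2314, 4440 and 3965 calls in that order. The gain in HG against NG was Runx1 (adjusted p = 0.0476). The libraries share only a number: of 18 pairs of same-numbered libraries 5 had deviations correlated over 0.1 (range -0.07 to 0.18), and 6 of 12 libraries correlated best with their own number.

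Over all genes, HG+CD200Fc against NG+CD200Fc had 1593 calls, 2597 with limma voom, and 277, 344, 646 and 665 without HG+CD200Fc replicate 2, NG+CD200Fc replicate 3, HG+CD200Fc replicate 3 and NG+CD200Fc replicate 1. HG+CD200Fc against NG had 3903, and 2217 without NG replicate 1 and 2349 without HG+CD200Fc replicate 2. In NG+CD200Fc against NG, 0 calls became 21 without a filter, 9 with only the groups compared, 8 without HG replicate 1 and 2 with the replicate block. Depth limits Cx3cr1, P2ry12 and Gpr34, with 806, 520 and 41 counts in all. Of the 5 genes most like P2ry12 none remained with Spearman's correlation.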
